A study of Mus musculus with 6 samples.

Results

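The 36 genes described here encode the enzymes of the tricarboxylic acid (TCA) cycle, the pyruvate dehydrogenase complex that feeds it with its kinases and phosphatases, and the enzymes that exchange carbon with it. They were picked by gene name from a deposited expression table of 55487 genes. All 36 names were found, and 34 of them were among the 15419 genes with enough counts to test. The expression table comes from bulk poly-A RNA-seq of long-term hematopoietic stem cells (LT-HSCs) of mouse bone marrow, the rare cells that sustain blood formation. Cells carrying the Mmrn1-GFP type genotype were split into an Mmrn1-low and an Mmrn1-high group, each with 3 libraries, and all libraries of both groups share that genotype. Mmrn1 encodes multimerin 1, a large secreted glycoprotein of platelets and endothelium. The sources used here do not state the age or treatment of the mice, the sorting gate or how the GFP allele was made. Whether the 3 libraries of a group came from separate mice is not in the labels either, so every p-value rests on library-to-library variation that could be purely technical.

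The TCA cycle oxidises acetyl-CoA in the mitochondrial matrix and hands the electrons to the respiratory chain as NADH and FADH2. Acetyl-CoA from glucose arrives through pyruvate dehydrogenase, which is switched off by the kinases Pdk1 to Pdk4 and switched back on by the phosphatases Pdp1 and Pdp2. The cycle also loses and gains carbon: pyruvate carboxylase adds oxaloacetate, malic enzymes turn malate into pyruvate, ATP citrate lyase splits exported citrate, and the malate-aspartate shuttle moves reducing equivalents across the inner membrane. Quiescent LT-HSCs are known for relying on glycolysis and for restraining pyruvate oxidation through Pdk2 and Pdk4, while cycling progenitors rely more on mitochondrial oxidation.

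Library totals ran from 11595104 to 30909990 counts, and gene levels are given in CPM, where all libraries are brought to the same total, after TMM scaling, which corrects for the composition of each library. A positive log2 difference means higher in Mmrn1-high libraries, and a call means a Benjamini-Hochberg adjusted p under 0.05 in edgeR's quasi-likelihood test over the 15419 genes. The 2 groups differed widely: 61.2% of all tested genes were called, 30.7% higher and 30.5% lower. Without the composition factors, the median log2 difference of all genes moved by 0.15, so small differences depend on that scaling and are given with this in view. Mmrn1 itself was measured at 5.60 to 5.81 CPM in Mmrn1-low and 8.81 to 11.4 CPM in Mmrn1-high libraries, a log2 difference of 0.82 ± 0.12 (SE, adjusted p = 4.85e-04).

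Most of the measured enzymes were lower in Mmrn1-high cells. Of the 34 tested members, 22 (64.7%) were called lower, against 30.5% of all tested genes, and 4 (11.8%) were called higher, against 30.7%. A call in either direction was made for 61.2% of all tested genes. The 4 higher members were the kinases Pdk1 and Pdk2 and the phosphatases Pdp1 and Pdp2, all of them regulators of pyruvate dehydrogenase and none an enzyme of the cycle itself. The other 8 members did not pass the test (Idh3b, Idh3g, Dlst, Suclg2, Sdhb, Pdha1, Aco1 and Mdh1). The median log2 difference of the 34 members was −0.36, against 0.0054 for all tested genes, and the range ran from −1.34 for Idh1 to 1.30 for Pdk2. In 29 members (85.3%) the 3 libraries of one group did not overlap those of the other, against 67.8% of all tested genes. The median absolute log2 difference was 0.39 for the members and 0.37 for all tested genes. Of the members, 8 passed the test with an absolute log2 difference of at least 0.5, 6 of them lower and 2 higher. The share of all tested genes past that level was not counted. In bulk RNA, fewer cells of a type and less RNA per cell cannot be told apart. Added over all 36 members, the level was 5701.83 to 5785.16 CPM in Mmrn1-low and 4536.58 to 4557.59 CPM in Mmrn1-high libraries. Scaling by library size alone kept 16 lower and raised the higher calls to 8, which put 66.7% of the called members lower in place of 84.6%.

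**Figure D1:**
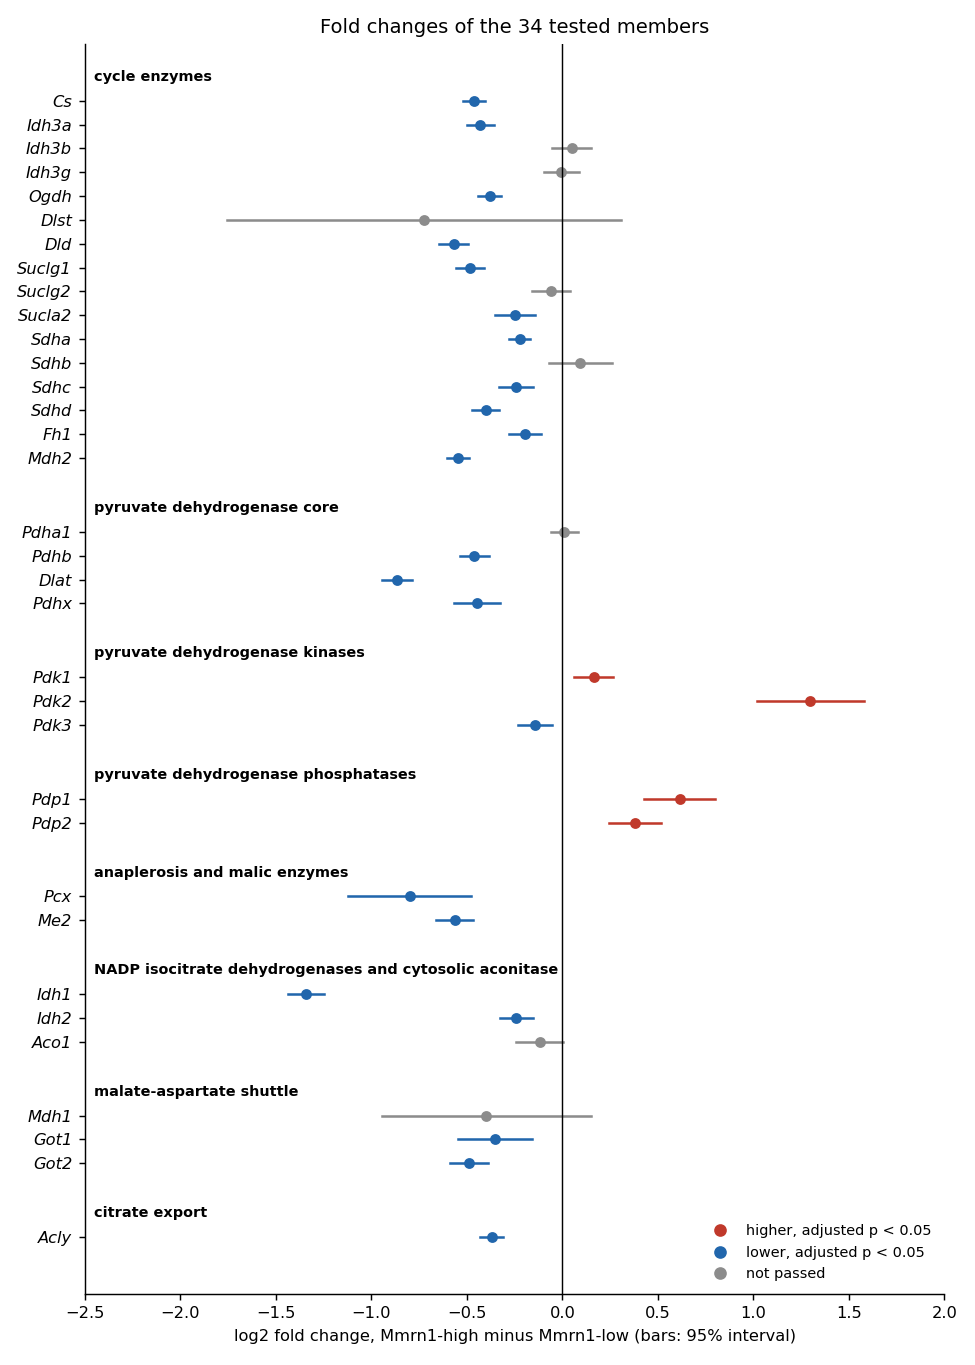
Log2 difference between Mmrn1-high and Mmrn1-low libraries for the 34 tested members, grouped by role, with 95% confidence intervals from edgeR; the vertical line marks no difference. Points left of it are lower in Mmrn1-high libraries, and the 4 called higher are Pdk1, Pdk2, Pdp1 and Pdp2.

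Markers of cell types and of mitosis moved with the same groups. All 12 tested markers of early granulocyte progenitors, such as Mpo, Elane and Prtn3, were called lower, and their summed level was 24635 to 25952 CPM in Mmrn1-low against 3821 to 3910 CPM in Mmrn1-high libraries. All 16 mitosis genes were lower too, with sums of 4204 to 4237 against 1970 to 2053 CPM. The marrow macrophage list fell in 11 of 12 genes, with sums of 254 to 261 against 44.8 to 45.8 CPM. Of 14 LT-HSC markers, 12 rose, with sums of 456 to 487 against 779 to 821 CPM. These 12 include Mmrn1, after which the groups are named, so its rise is not independent of the grouping. Kit was the largest single part of the LT-HSC sums, with Mmrn1-low libraries averaging 328 CPM and Mmrn1-high ones 394 CPM. Maturing neutrophil markers rose in 10 of 10 genes, with sums of 2983 to 3108 against 4853 to 5171 CPM. B cell markers were called higher in 6 of 8 tested genes and T and NK markers in 6 of 7, both at low sums, and the erythroid and plasma lists moved both ways. Every listed marker gene was above 0 in at least 1 library of each group. Whether these markers came from other cells or from expression within the LT-HSCs was not tested. Their relation to the results below was not tested either.

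Around the cycle, 11 of the 16 enzyme genes were called lower, 0 were called higher and 5 did not pass. Their median log2 difference was −0.31. With library size alone, 8 were lower, 3 higher (Idh3b, Idh3g and Sdhb) and 5 did not pass, with a median of −0.17. Under TMM scaling, their summed level was 3170.6 to 3283.58 CPM in Mmrn1-low against 2548.24 to 2549.99 CPM in Mmrn1-high libraries. Cs, citrate synthase, which joins acetyl-CoA to oxaloacetate at the entry of the cycle, fell from 376 ± 2.27 CPM to 273 ± 2.25 CPM (SD, n = 3), a log2 difference of −0.46 ± 0.02 (SE, adjusted p = 1.49e-06).

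The NAD-dependent isocitrate dehydrogenase is built from a catalytic subunit, Idh3a, and the further subunits Idh3b and Idh3g, and 1 of its 3 genes was called. Idh3a fell from 191 ± 3.76 to 142 ± 1.73 CPM (SD, n = 3), a log2 difference of −0.43 ± 0.03 (SE, adjusted p = 7.26e-06). Idh3b measured 125 to 131 CPM in Mmrn1-low and 126 to 140 CPM in Mmrn1-high libraries, and the 95% interval of its log2 difference ran from −0.05 to 0.15. Idh3g measured 132 to 139 and 131 to 141 CPM, with an interval from −0.10 to 0.09. The libraries of the groups overlapped for both further subunits, so under TMM scaling the catalytic subunit was the one called. With library size alone, Idh3b (log2 difference 0.20) and Idh3g (0.14) were called higher.

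The oxoglutarate dehydrogenase complex, made by Ogdh, Dlst and the shared subunit Dld, fell in 2 of its 3 genes. Ogdh fell from 339 ± 2.20 to 260 ± 4.45 CPM (SD, n = 3), a log2 difference of −0.38 ± 0.03 (SE). Dld, which also serves pyruvate dehydrogenase, measured 188, 190 and 193 CPM in the Mmrn1-low libraries and 130, 131 and 124 CPM in the Mmrn1-high ones. Every Mmrn1-low library lay above every Mmrn1-high one, and the difference was −0.57 ± 0.03 (SE, adjusted p = 2.44e-06). Dlst, the core transferase of the complex, measured 82.2, 174 and 74.3 CPM in Mmrn1-low and 64.8, 68.1 and 65.6 CPM in Mmrn1-high libraries. The second Mmrn1-low library stood 2.22-fold above the mean of the other 2, and the gene did not pass (−0.73 ± 0.39, adjusted p = 0.173); without that library it was called lower, at −0.24 (adjusted p = 0.0103).

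Succinyl-CoA ligase pairs the common subunit Suclg1 with either Suclg2, which makes GTP, or Sucla2, which makes ATP. Suclg1 fell from 175 ± 3.15 to 125 ± 2.82 CPM and Sucla2 from 81.5 ± 2.50 to 68.5 ± 2.62 CPM (SD, n = 3), with log2 differences of −0.48 ± 0.03 and −0.25 ± 0.05 (SE), and the Sucla2 call ended with library size alone (−0.10, adjusted p = 0.0920). Suclg2 did not pass, at 92.7 and 89.0 CPM on average and an interval from −0.16 to 0.04. Succinate dehydrogenase, which also sits in the respiratory chain as complex II, fell in 3 of its 4 subunits under TMM scaling. Sdha, the flavoprotein, fell from 463 ± 4.29 to 396 ± 4.45 CPM, Sdhc from 150 ± 3.55 to 126 ± 4.63 CPM and Sdhd, which with Sdhc forms the membrane anchor, from 201 ± 1.57 to 152 ± 4.02 CPM. Their log2 differences were −0.22, −0.24 and −0.40. With library size alone, Sdha shrank to −0.08 and the Sdhc call ended (−0.10, adjusted p = 0.0613). Sdhb, the iron-sulfur subunit, measured 96.2, 94.5 and 94.7 CPM in Mmrn1-low and 89.5, 105 and 110 CPM in Mmrn1-high libraries. It was the only subunit whose groups overlapped, and without the first Mmrn1-high library it was called higher (0.19, adjusted p = 0.00670), as it was with library size alone (0.24, adjusted p = 0.0160).

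The last steps of the cycle, fumarase and malate dehydrogenase, were both called lower under TMM scaling. Fh1 fell from 118 ± 3.42 to 103 ± 2.09 CPM (SD, n = 3), a log2 difference of −0.20 ± 0.04 (SE), but with library size alone its difference was −0.05 and the call ended (adjusted p = 0.302). Mdh2, the mitochondrial malate dehydrogenase on chromosome 5 (135778480 to 135790398, build GRCm38), measured 361, 370 and 367 CPM in Mmrn1-low and 254, 250 and 248 CPM in Mmrn1-high libraries. The libraries of each group lay close together and apart from the other group, and the difference was −0.55 ± 0.03 (SE, adjusted p = 8.32e-07), a 1.46-fold lower level.

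The pyruvate dehydrogenase core fell in 3 of 4 genes, with a median log2 difference of −0.45. Dlat, the acetyltransferase that forms the core of the complex (chromosome 9, 50634633 to 50659780), measured 137, 140 and 142 CPM in Mmrn1-low and 78.2, 76.5 and 75.3 CPM in Mmrn1-high libraries. No library of one group came near the other, and the 1.82-fold lower level was a log2 difference of −0.86 ± 0.03 (SE, adjusted p = 3.30e-07). Pdhb, the other decarboxylase subunit, fell from 140 ± 3.57 to 102 ± 0.677 CPM, and Pdhx, the E3-binding protein, from 38.6 ± 0.683 to 28.3 ± 0.297 CPM (SD, n = 3). Pdha1, the decarboxylase subunit that the kinases phosphorylate (chromosome X, 160122209 to 160138413), measured 267, 276 and 270 CPM in Mmrn1-low and 266, 282 and 272 CPM in Mmrn1-high libraries. The values of the 2 groups overlapped and the interval of the difference ran from −0.06 to 0.08, so under TMM scaling the target of the kinases was not called while its partners fell; with library size alone it was called higher, at 0.16.

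Regulators of the complex were the only members called higher under TMM scaling. Pdk2 (chromosome 11, 95026258 to 95041354), a kinase that inactivates the complex, measured 8.81, 6.56 and 7.90 CPM in Mmrn1-low and 19.2, 17.5 and 20.8 CPM in Mmrn1-high libraries. The lowest Mmrn1-high library was well above the highest Mmrn1-low one, and the 2.46-fold higher level was a log2 difference of 1.30 ± 0.12 (SE, adjusted p = 3.84e-05). The counts behind it were 89 to 227 per Mmrn1-low library and 235 to 570 per Mmrn1-high library. Pdk1, the kinase that hypoxia-inducible factor raises, measured 135, 130 and 138 CPM against 142, 153 and 156 CPM. The groups did not overlap but lay close, and its difference of 0.16 ± 0.04 (SE, adjusted p = 0.0122) was lost in DESeq2 (adjusted p = 0.0597). Pdk3, measured at 74.8, 76.4 and 77.6 CPM against 67.8, 69.4 and 69.8 CPM, was called lower by a small amount (−0.14 ± 0.04, adjusted p = 0.0119). That call ended without Mmrn1-low library 3 (adjusted p = 0.0534) and without Mmrn1-high library 1 (0.0568) or library 2 (0.0531). It also ended with no filter (adjusted p = 0.0999) and with a filter of 5 CPM in 3 libraries (adjusted p = 0.0540), and the difference was 0.0044 with library size alone. Pdk4 had 2, 0 and 3 counts in Mmrn1-low and 6, 5 and 5 counts in Mmrn1-high libraries, too few to test.

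Both phosphatases, which reactivate the complex, were called higher as well. Pdp1 (chromosome 4, 11958184 to 11966452) measured 10.1, 9.14 and 9.81 CPM in Mmrn1-low and 15.1, 14.5 and 14.9 CPM in Mmrn1-high libraries, which did not overlap (0.61 ± 0.08, SE, adjusted p = 2.64e-04). Pdp2 measured 25.4, 27.6 and 27.3 CPM against 34.2, 35.1 and 35.2 CPM (0.38 ± 0.06, adjusted p = 6.74e-04). So genes of opposite action on the same complex rose together in Mmrn1-high libraries. On the authors' FPKM scale, which divides by transcript length and so allows levels of different genes to be compared, the summed kinases rose from 37.0 ± 0.781 to 43.2 ± 1.05 FPKM and the summed phosphatases from 5.48 ± 0.179 to 8.18 ± 0.0552 FPKM (SD, n = 3). Pdk3 supplied 64.4 ± 1.15% of the kinase FPKM in Mmrn1-low and 55.4 ± 0.785% in Mmrn1-high libraries, Pdk1 30.4 ± 0.435% and 32.4 ± 0.833%, and Pdk2 5.09 ± 0.710% and 11.97 ± 0.872%. Pdk2 thus remained the least of the 3 tested kinases in both groups. FPKM values are not corrected for library composition.

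**Figure D2:**
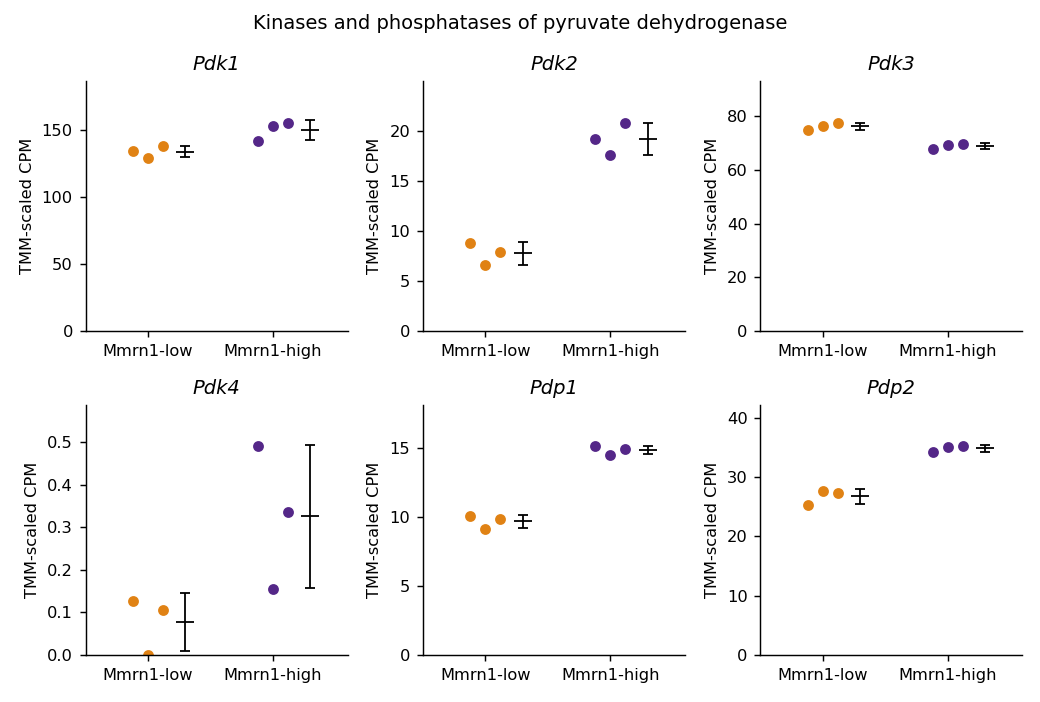
Levels of the pyruvate dehydrogenase kinases and phosphatases in CPM, one point per library for 3 Mmrn1-low and 3 Mmrn1-high libraries, with the mean and SD beside the points and a separate axis for each gene. Pdk2 sits at 6.56 to 8.81 CPM in Mmrn1-low and 17.5 to 20.8 CPM in Mmrn1-high libraries.

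Promoter sequence is shown for Pdk2 and Idh1, the members at the ends of the range of log2 differences, and for Pdp2 and Pcx, which share a motif with Pdk2. It came from the RefSeq promoter table (build GRCm38.p6), in which 32 of the 36 members matched. Dlat, Cs, Mdh2, Dld and Pdha1 were read as well and held no E-box (CACGTG) in the 250 bases upstream. Ogdh, a lower member that also holds CACGTG, is not shown. The lines show 250 bases upstream of a start site, with the E-box letters CACGTG in capitals. Pdk2 (chr11:95041372-95041621, minus strand) and Pdp2 (chr8:104591222-104591471, plus strand), both higher, hold one, and so does Pcx (chr19:4510222-4510471, plus strand), which is lower and whose second capital run is the ACGTG element. A second listed start of Pdk2 (chr11:95040876-95041125) and of Pcx (chr19:4594069-4594318) held none of the motifs searched in the bases upstream. The same was true of Idh1 at both of its starts, of which one is shown (chr1:65186480-65186729, minus strand).
Pdk2: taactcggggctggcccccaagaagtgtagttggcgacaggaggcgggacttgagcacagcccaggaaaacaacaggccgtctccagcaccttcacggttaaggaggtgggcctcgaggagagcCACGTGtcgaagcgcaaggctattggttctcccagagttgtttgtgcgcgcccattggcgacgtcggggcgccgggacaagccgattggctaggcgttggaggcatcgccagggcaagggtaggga
Pdp2: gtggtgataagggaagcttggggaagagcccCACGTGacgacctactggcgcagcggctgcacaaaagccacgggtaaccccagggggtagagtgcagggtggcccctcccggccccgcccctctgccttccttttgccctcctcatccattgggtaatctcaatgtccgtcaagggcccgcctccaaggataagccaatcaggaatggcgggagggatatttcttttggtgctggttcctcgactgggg
Pcx: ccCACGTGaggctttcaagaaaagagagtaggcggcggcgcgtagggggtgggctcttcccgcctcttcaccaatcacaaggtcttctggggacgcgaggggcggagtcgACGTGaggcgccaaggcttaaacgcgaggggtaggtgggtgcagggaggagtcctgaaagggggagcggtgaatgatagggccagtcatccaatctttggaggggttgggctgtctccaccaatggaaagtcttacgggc
Idh1: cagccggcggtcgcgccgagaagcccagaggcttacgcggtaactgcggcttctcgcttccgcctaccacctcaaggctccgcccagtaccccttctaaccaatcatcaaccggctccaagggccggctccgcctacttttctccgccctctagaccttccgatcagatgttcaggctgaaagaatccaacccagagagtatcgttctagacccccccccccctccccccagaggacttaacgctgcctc
The motifs were searched on both strands of windows of 300 bases. CACGTG was in 14.3% of the 42 member promoters against 7.15% of all 32851, and the shorter ACGTG, which overlaps it, in 38.1% against 19.6%. These shares count promoters, so a gene with several listed starts counts at each. The 6 member promoters with CACGTG came from 4 of 32 genes, and the 16 with ACGTG from 11 of 32. NRF1's GCGCATG was in 7.14% against 3.91%, the estrogen-related receptor's AAGGTCA in 7.14% against 4.72% and the ETS letters CCGGAA in 19% against 14.9%. The 4 members with CACGTG were Ogdh, Pdk2, Pdp2 and Pcx, which moved in both directions. A match is a description of letters and not evidence of binding.

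Among the NADP-dependent isocitrate dehydrogenases, Idh1 differed by over 1 on the log2 scale. Idh1, the cytosolic enzyme that makes NADPH and oxoglutarate (chromosome 1, 65158616 to 65186500), measured 171, 160.0 and 171 CPM in Mmrn1-low and 66.6, 67.1 and 63.9 CPM in Mmrn1-high libraries. The groups were far apart, a 2.54-fold lower level (−1.34 ± 0.04, SE, adjusted p = 8.68e-08). Idh2, its mitochondrial counterpart, was called lower, from 329 ± 6.50 to 278 ± 12.9 CPM (SD, n = 3), a difference of −0.24 ± 0.04 (SE). With library size alone that call ended (−0.09, adjusted p = 0.0562). Aco1, the cytosolic aconitase that also acts as an iron-regulatory protein, was at 58.1 and 53.5 CPM on average, with non-overlapping libraries but no call (−0.12, adjusted p = 0.0866).

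The genes that add or remove carbon were lower where they could be tested. Pcx, pyruvate carboxylase, was scarce, at 8.37, 9.14 and 8.11 CPM in Mmrn1-low and 3.997, 5.63 and 4.75 CPM in Mmrn1-high libraries. Its groups did not overlap and the difference was −0.80 ± 0.14 (SE, adjusted p = 0.00134). Me2, the mitochondrial malic enzyme, measured 151, 141 and 150 CPM against 98.0, 97.7 and 104 CPM, a difference of −0.56 ± 0.04 (SE, adjusted p = 9.68e-06) with no overlap. Me1, the cytosolic malic enzyme, had 4, 6 and 5 counts in Mmrn1-low and 4, 16 and 2 counts in Mmrn1-high libraries and was not tested. Acly, ATP citrate lyase, which turns exported citrate into cytosolic acetyl-CoA, fell from 447 ± 4.77 to 345 ± 7.21 CPM (SD, n = 3), a difference of −0.37 ± 0.03 (SE).

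In the malate-aspartate shuttle, Got1 and Got2, the cytosolic and mitochondrial aspartate aminotransferases, were both called lower, with log2 differences of −0.35 ± 0.08 and −0.49 ± 0.04 (SE), and the Got1 call ended with library size alone (−0.20, adjusted p = 0.0641). Mdh1, the cytosolic malate dehydrogenase, measured 166, 177 and 177 CPM in Mmrn1-low and 175, 112 and 109 CPM in Mmrn1-high libraries. The first Mmrn1-high library stood at the Mmrn1-low level, 1.58-fold above the mean of the other 2, and the gene did not pass (−0.40 ± 0.21, adjusted p = 0.166). Without that library it was called lower, at −0.63 (adjusted p = 2.91e-05). Got2 (434 bases), Mdh1 (52 bases), Pdha1 (603 bases), Idh3b (5 bases) and Me1 (30 bases) share exon bases with a gene on the opposite strand, and the sources used here do not state the strand setting of the authors' counting. Suclg2, Got2 and Me1 have near-identical copies elsewhere, between which reads could have been split.

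**Figure D3:**
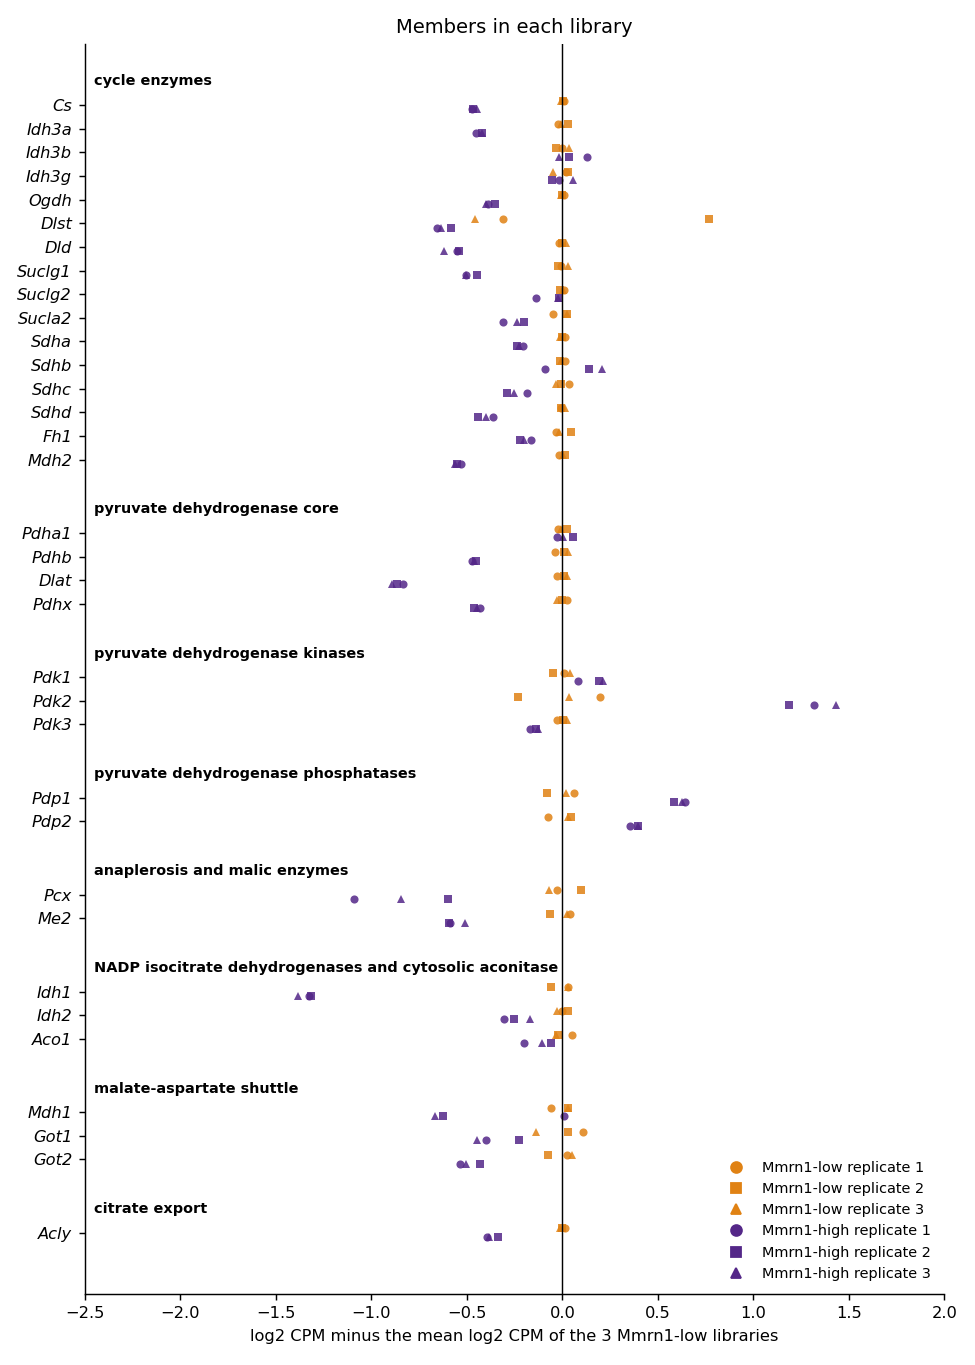
Log2 CPM of the 34 tested members in each library minus the mean of the 3 Mmrn1-low libraries, with members in rows and one marker per library, coloured by group. The single-library departures of Dlst in Mmrn1-low library 2 and of Mdh1 in Mmrn1-high library 1 stand out from their own group.

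Ratios between paired members do not depend on library scaling. Of 21 ratios compared on the FPKM scale, 10 were listed and 11 were added after values had been seen. In 19 the groups did not overlap, at the smallest exact permutation p that 3 against 3 libraries allow (two-sided p = 0.1, adjusted p = 0.111). All 11 added ratios were among these, as could follow from how they were picked, and the adjustment ran over all 21 together. How often ratios of other genes lack overlap was not tested. Idh1 to Idh2 fell from 0.581 ± 0.0319 to 0.271 ± 0.0185 (SD, n = 3). Pdk1 to Pdk2 fell from 6.06 to 2.72, while Pdk1 to Pdk3 rose from 0.473 to 0.585. Among the ratios added, Pdha1 to Dlat rose from 2.63 to 4.83 and Pdha1 to Pdhb from 3.51 to 4.87, and Idh3a to Idh3b fell from 1.05 to 0.755. Sucla2 to Suclg2 fell from 0.924 to 0.811, and Sdhb to Sdhd rose from 0.224 to 0.315. Got1 to Got2 (exact permutation p = 0.3) and Mdh1 to Mdh2 (exact permutation p = 1.0) were the ratios whose groups overlapped.

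**Figure D4:**
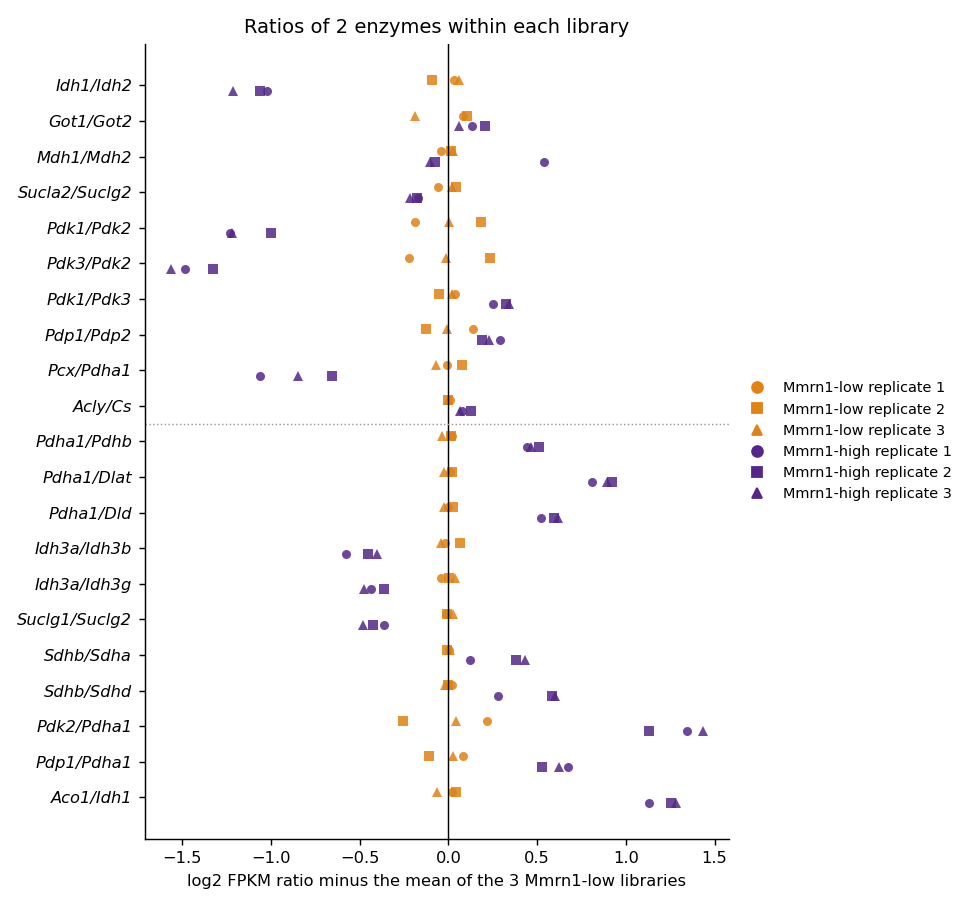
Ratios of paired members in each library, from the authors' FPKM, as log2 ratio minus the mean of the 3 Mmrn1-low libraries, with one marker per library; ratios under the dotted line were added after values had been seen. By mean change, Pdk3 to Pdk2 (−1.46), Pdk1 to Pdk2 (−1.15) and Idh1 to Idh2 (−1.10) are the most negative and Pdk2 to Pdha1 (1.30) the most positive.

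On the authors' per-length FPKM scale, succinate dehydrogenase's Sdhd had the highest level of the members, at 155 ± 1.57 FPKM in Mmrn1-low and 130.1 ± 3.81 FPKM in Mmrn1-high libraries (SD, n = 3). Sdha (74.4 and 70.6 FPKM), Mdh2 (67.3 and 51.1), Pdha1 (63.3 and 70.6), Idh2 (60.5 and 56.7) and Cs (60.3 and 48.5) were the next highest in Mmrn1-low libraries. The regulators spanned a wide range: Pdk3 stood at 23.9 FPKM in both groups, above Pdhb (18.01 and 14.5 FPKM), and Pdk1 at 11.3 and 14.0 FPKM. Pdp2 was lower, at 4.46 and 6.44 FPKM, as were Pdk2 at 1.89 and 5.17 FPKM and Pdp1 at 1.02 and 1.73 FPKM. Pcx stood at 1.25 and 0.780 FPKM. Pdk4 and Me1 were at 0.0862 and 0.0598 FPKM on average in Mmrn1-high libraries. These FPKM values are not corrected for library composition, so they serve to compare genes and not the 2 groups. Under TMM scaling, Pdk3 was called lower (−0.14) and Pdha1 was not called (0.01).

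Genes that feed, assemble or regulate these enzymes moved in both directions. Of 76 tested genes on 8 lists, 30 (39.5%) were called lower, against 30.5% of all tested genes, and 11 (14.5%) higher, against 30.7%, with a median log2 difference of −0.13. With library size alone, 22 were lower and 17 higher. In pyruvate entry and lactate handling, 3 of 8 were lower and 1 higher. The lower genes were the monocarboxylate carriers Slc16a1 (−1.03 ± 0.05, SE) and Slc16a3 (−0.86 ± 0.06) and lactate dehydrogenase Ldha (−0.45 ± 0.03), and the higher one, named after its value was seen, was the mitochondrial PEP carboxykinase Pck2 (0.29). Among 12 genes of amino acid entry, 5 were lower and 2 higher, the lower including the proline enzymes Aldh18a1 (−0.60) and Oat (−0.53) and asparagine synthetase Asns (−1.11). The higher ones, also named after their values were seen, were Abat (1.73) and Aldh5a1 (0.38), which degrade GABA. In lipoyl and iron-sulfur assembly, 6 of 14 were lower, with Glrx5 at −0.52 and Lias, lipoyl synthase, at −0.34, and 1 was higher, Lipt2 (0.78), a lipoyl transferase likewise named after its value was seen. The 4 succinate dehydrogenase assembly factors did not pass, with a median of 0.04. Among 8 metabolite carriers 5 were lower and 0 higher, the lower including the aspartate-glutamate carriers Slc25a12 (−0.58) and Slc25a13 (−0.33).

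In the list of acetyl-CoA, 2-hydroxyglutarate and NADPH genes, 6 of 10 were lower and 3 higher. Pgd and G6pdx, NADPH-producing enzymes of the pentose phosphate pathway, fell by 1.44 ± 0.02 and 0.52 ± 0.03 on the log2 scale (SE), Pgd from 725 to 267 CPM. Of those called higher, chosen for naming after their values were seen, Acss2 and Acss1, which make acetyl-CoA from acetate, rose by 1.01 ± 0.07 and 0.53 ± 0.05. The 12 tested regulators of mitochondrial genes split 4 higher and 3 lower. Hif1a fell from 127 to 70.6 CPM (−0.85 ± 0.04, SE), Tfam, the mitochondrial transcription factor, rose by 0.31 ± 0.05, and Ppargc1a rose from 0.180 to 0.857 CPM (2.21 ± 0.39) at a very low level. The sister dehydrogenases fell in 2 of 8, Dbt (−0.26) and Bckdk (−0.45).

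**Figure D5:**
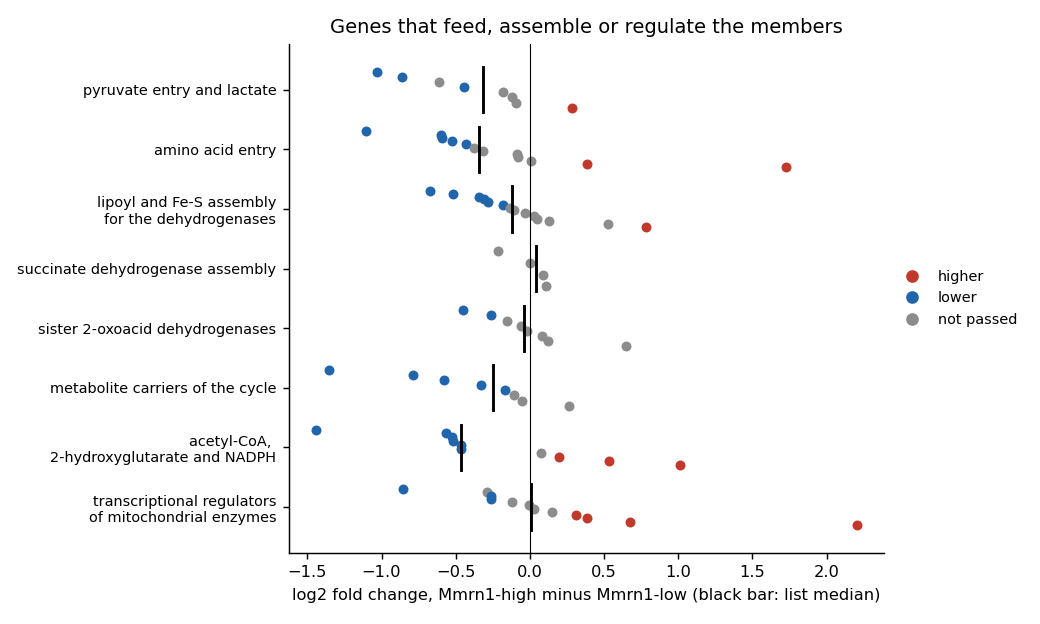
Log2 difference between Mmrn1-high and Mmrn1-low libraries for the 76 tested linked pathway genes, by list, with one point per gene coloured by its call and a black bar at the list's median. Points left of 0 are lower in Mmrn1-high libraries; Pgd is lowest in its list at −1.44 and Ppargc1a highest at 2.21.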

How the data were processed

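Gene counts and FPKM values of 6 libraries, 3 Mmrn1-low and 3 Mmrn1-high, were used as deposited. By the labels' protocols, RNA selected by poly-A was made into stranded paired-end libraries and sequenced on a NovaSeq instrument. CASAVA 1.8, HISAT2, StringTie, edgeR and the build GRCm38 appear in the submitters' processing notes without roles or order; the deposited counts are whole numbers per gene, per the file headers, and the deposited FPKM values are the authors' own, and gave nearly the same differences as counts scaled by library size alone. The sources used here do not state the strand setting or annotation release, and coordinates come from the annotation of the same build (35 of 36 members at identical positions).

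Counts were tested with edgeR 4.0.16 (R 4.3.3): TMM factors, edgeR's default filter, robust quasi-likelihood fit by group over 15419 genes, and Benjamini-Hochberg adjustment over all of them. Library totals ran from 11595104 to 30909990 counts. FPKM served for levels between genes and for ratios, compared with exact permutation tests in SciPy 1.17.1. Tried in place of these were DESeq2 1.42.0, factors from relative log expression or from library size only, dropping the filter or asking for 5 CPM in 3 libraries, limma 3.58.1 (voom with quality weights, and log2(FPKM + 1) or log2(FPKM + 0.1)), a replicate block, a threshold of 0.01 and leaving out each library. The procedure was also run on simulated counts in which few genes changed, in either direction, with a single dispersion for all genes. That setting differs from these data, where 61.2% of tested genes were called, so it does not check the scaling between the groups. The member genes and the linked and marker lists were chosen with earlier results of these data known. Values per library are given for members past the threshold with an absolute log2 difference of at least 0.5 and for all kinases and phosphatases, and for Dlst, Mdh1, Pdha1 and Sdhb after their values were seen; of each linked list at most 3 genes with the smallest p are named unless stated. Nnt, on 2 rows, was left out.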

Additional observations from a re-analysis of the deposited data

How the results depend on the processing

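Direction and call held in all 16 alternative fits for 19 members, 16 of the 22 lower (among them Idh1, Dlat, Mdh2, Dld, Me2 and Cs) and 3 of the 4 higher (Pdk2, Pdp1 and Pdp2). The median log2 difference of −0.36 became −0.21 with library size alone, −0.28 with no filter, −0.31 with the 5 CPM filter, −0.31 with DESeq2, and −0.20, −0.21 and −0.14 with log2(FPKM + 1), log2(FPKM + 0.1) and log2(FPKM + 1) without a filter; leaving out one library gave −0.37 to −0.29. Members called higher numbered 8 with library size alone and with both filtered FPKM fits and 7 with FPKM unfiltered, and linked genes called higher 17 with library size alone. With 1 library left out, 4 to 5 members were called higher and 21 to 23 lower. With library size alone, the lower calls of Sucla2, Sdhc, Fh1, Pdk3, Idh2 and Got1 ended; the cause was not tested beyond the shift of all genes given above.

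Directions that turned were those of small differences. Idh3g came to 0.14 with library size alone, 0.012 with no filter, 0.045 with the 5 CPM filter, −0.037 to 0.037 with 1 library left out, and 0.137, 0.142 and 0.137 in the FPKM fits. In the order library size alone, log2(FPKM + 1), log2(FPKM + 0.1) and FPKM unfiltered, Suclg2 came to 0.0906, 0.0830, 0.0878 and 0.0830, Pdk3 to 0.0044, 0.00386, 0.00401 and 0.00386, and Aco1 to 0.0306, 0.0255, 0.0275 and 0.0255. Pdha1 came to −0.0035 with DESeq2, and the log2 change of the Mdh1 to Mdh2 ratio ranged from −0.0905 (without Mmrn1-high library 1) to 0.233 with 1 library left out. The replicate block gave 4 higher, 22 lower and a median of −0.36, and changed no member's call; same-numbered libraries correlated at 0.0426, −0.0785 and 0.0286 in their deviations, so the numbers were not taken as pairs, and not every library correlated best with its own number. Counts of Pdk4 and Me1 were too low to test, and 3 libraries a group limit the precision of every small difference.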

Other observations

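Libraries that stood apart for a single gene, as for Mdh1, were counted over all genes after those values had been seen. Among 5027 tested genes with a mean of at least 50 CPM, 161 (3.2%) had a library at least 1.5-fold above or below the mean of the other 2 of its group while those 2 lay within 1.1-fold of each other. Each library supplied some: between 11 and 18 genes above and between 13 and 24 below. Of the 28 members at that level, 1 was among them, Mdh1, and Dlst missed because its other 2 Mmrn1-low libraries differed slightly more. Below that level, Slc25a22, a mitochondrial glutamate carrier, read 40.7, 19.4 and 40.4 CPM in the Mmrn1-low libraries and 38.1 to 43.7 CPM in the Mmrn1-high ones.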
